A study of Mus musculus with 3 samples.

Results

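The genes described here are Lin28a, Lin28b, Trim71, Hmga1, Hmga2, Igf2bp1, Igf2bp2 and Igf2bp3, 8 genes that are linked to the let-7 microRNAs, across 3 mouse pluripotent stem cell cultures. Members were found by symbol in the platform annotation of Affymetrix Mouse Gene 2.0 ST arrays, and only probe sets listed for 1 gene symbol were used. Lin28a, Lin28b, Trim71, Hmga2 and Igf2bp3 each had 1 such probe set, so 5 of the 8 members, out of 22180 genes in the whole table, gave values. The probe set listed for Igf2bp1 is also listed for a microRNA gene and was not used for it, and the levels of Hmga1 and Igf2bp2 were not analysed here.

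Total RNA from each culture was hybridised to 1 array, so no group had a replicate, no difference was tested, and "higher" and "lower" describe these 3 arrays. The Activin+PD culture was the mouse embryonic stem cell (mESC) line EB3, kept for 64 days in N2B27 medium with Activin A at 20 ng/ml, which signals through SMAD2/3, and PD0325901 at 2 µM, which inhibits MEK and so keeps ERK inactive. The 2i culture was EB3 mESCs kept for 34 days in N2B27 with the same dose of PD0325901 and with CHIR99021 at 2 µM, which inhibits GSK3. The third culture was of mouse epiblast stem cells (mEpiSCs) derived by induction of EB3 mESCs. Their N2B27 held Activin A at 20 ng/ml and bFGF at 12 ng/ml, and the labels state no number of days. All 3 cultures therefore derive from 1 cell line, and the 2 mESC cultures share the MEK inhibitor. The mEpiSC array is labelled with the same tissue as the mESC arrays, and its name, source and medium set it apart.

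LIN28A and LIN28B are RNA-binding proteins that bind the precursors of let-7 and block their maturation, partly by recruiting uridylyl transferases that mark the precursor for decay. Mature let-7 in turn represses the messenger RNAs of LIN28 proteins, of the chromatin protein HMGA2, of the IGF2BP proteins and of TRIM71, so these genes are usually high in early embryonic cells and fall as let-7 accumulates in differentiating tissue. Lin28a is a classical marker of pluripotent cells, and Lin28b has been linked to the passage from the naive state of the inner cell mass to the primed state of the epiblast after implantation.

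The let-7 microRNAs act through bases 2 to 8 of the mature strand, the seed, which pairs with target messenger RNAs. The mature 5p sequences of 11 of the 12 let-7 family genes on the array were found in RefSeq (GRCm38.p6). They gave 9 distinct names, and all 9 had the seed GAGGUAG. A few are printed to show what LIN28 controls and what the targets share: let-7a and let-7i, for each of which a precursor gene was above background on every array (for let-7a, Mirlet7a-1 and not Mirlet7a-2), and let-7d, let-7e and miR-98, which differ outside the seed. They are written 5′ to 3′ with the seed in capitals.
let-7a-5p: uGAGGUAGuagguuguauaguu
let-7i-5p: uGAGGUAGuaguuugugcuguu
let-7d-5p: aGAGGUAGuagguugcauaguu
let-7e-5p: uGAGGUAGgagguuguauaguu
miR-98-5p: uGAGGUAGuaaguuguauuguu

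Values are log2 of the deposited intensity, and a difference is the log2 value of the first-named array minus that of the second, so that a difference of 1 is 2-fold. Background was set on each array at the 95th percentile over 1400 olfactory and vomeronasal receptor probe sets, a log2 level of 5.51 on the Activin+PD array, 5.59 on 2i and 5.57 on mEpiSC. Of the 22180 genes, 13330 to 13767 were above background on an array. The cell type labels held against marker genes. All 8 naive markers were above background in both mESC cultures, with median log2 levels of 10.31 in Activin+PD and 10.09 in 2i against 5.82 in mEpiSCs, where 5 of the 8 were above background. All 8 were at least 2-fold lower in mEpiSCs than in either mESC culture. Of 6 primed epiblast markers, 4 were at least 2-fold higher in mEpiSCs than in 2i and 3 than in Activin+PD. The Activin+PD culture was itself at least 2-fold above 2i for 2 of the 6, Fgf5 by 1.48 and Otx2 by at least 2.22. All 4 core pluripotency genes, Pou5f1, Sox2, Nanog and Sall4, were above background on every array.

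Over the 5 measured members, the mEpiSC culture had the highest level of 4 and the lowest level of Trim71. Lin28b and Hmga2 were at least 2-fold higher in mEpiSCs than in 2i, 2 of 5 members compared, while 4.54% of 14200 genes were. Against Activin+PD the same 2 genes were at least 2-fold higher, while 3.59% of 14375 genes were. The median member difference was 0.98 for mEpiSC minus 2i, beside 0.031 over all genes compared, and 0.80 for mEpiSC minus Activin+PD, beside 0.042. No member was at least 2-fold lower in either comparison, while 4.96% and 5.38% of all genes were. The members were chosen as let-7 axis genes and RNA-binding proteins taken to rise with the naive to primed change. Earlier results of these data were known, so these shares and medians are no test of that direction. The 2 mESC cultures were within 2-fold of each other for the members compared, as they were for most genes. Hmga2 differed most between these cultures, at -0.53 for Activin+PD minus 2i. Of the 4 members compared between them, 0 were higher and 0 were lower in Activin+PD by that fold, while 1.38% and 0.821% of 14003 genes were, and the median difference of Activin+PD minus 2i was 0.058, beside -0.0056 over all genes. Lin28a, Trim71, Hmga2 and Igf2bp3 were above background on every array, whereas Lin28b entered the comparisons through its mEpiSC value alone.

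**Figure D1:**
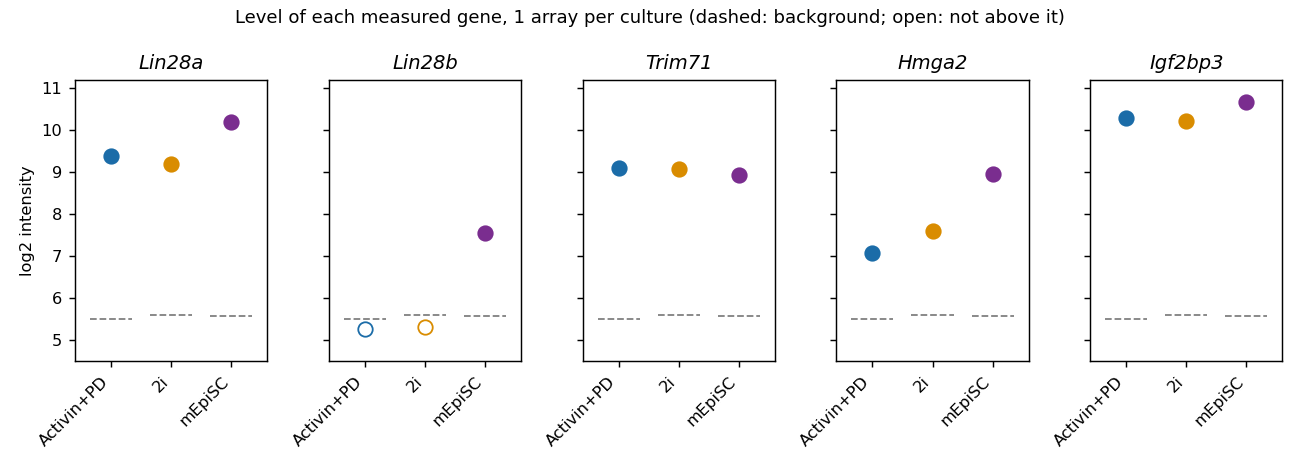
Log2 intensity (vertical axis) of the 5 measured genes in the Activin+PD, 2i and mEpiSC cultures (1 point per array, no replicates), with each array's background as a dashed line and open points for values not above it. Lin28b was above background in mEpiSCs alone, Hmga2 was highest in mEpiSCs, and Trim71 lay between 8.92 and 9.10 on all arrays; levels of different genes come from different probes and are not to be ranked against each other.

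Lin28b, one of the paired LIN28 proteins, stood further apart between the cultures than any other measured member. Its log2 level was 5.26 in Activin+PD, 5.31 in 2i and 7.55 in mEpiSCs. It was above background in mEpiSCs and not above background in either mESC culture, so only a bound can be given for the difference. Lin28b was higher in mEpiSCs by at least 1.96 than in 2i, or at least 3.88-fold, and by at least 2.04 than in Activin+PD, or at least 4.13-fold.

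Lin28a, its paralog, was far above background in every culture. Its log2 level was 9.39 in Activin+PD, 9.20 in 2i and 10.18 in mEpiSCs. The mESC cultures lay within 0.19 of each other, and the mEpiSC level was the highest. The difference of mEpiSC minus 2i was 0.98, or 1.98-fold, just inside the 2-fold limit, and 656 of 14200 genes had a measured difference as large or larger, genes dim on 1 array included. It lay just past the limit with median centring, at 1.005, and with 16 subtracted from each value, at 1.004. Against Activin+PD it was 0.80, or 1.74-fold. Lin28a was thus detected in all 3 cultures and Lin28b in 1 of them.

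With no replicates, the size of a difference can be read only against the disagreement between probe sets of 1 gene. Over 599 genes with at least 2 probe sets above background on at least 1 array of the pair, that spread was 0.36 for mEpiSC minus 2i. It was 0.33 over 611 genes for mEpiSC minus Activin+PD and 0.24 over 589 genes for Activin+PD minus 2i. It covers probe error and not the variation between cultures. The mEpiSC differences of Lin28a, Lin28b and Hmga2 were above this spread against both mESC cultures, and those of Trim71 were inside it.

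TRIM71, also called LIN41, is a ubiquitin ligase of the TRIM-NHL family that also binds and represses messenger RNAs, and its gene is a conserved let-7 target. The log2 level of Trim71 was 9.10 in Activin+PD, 9.07 in 2i and 8.92 in mEpiSCs. The 3 levels lay close together, with mEpiSCs the lowest. The difference was -0.15 for mEpiSC minus 2i, -0.18 for mEpiSC minus Activin+PD and 0.027 for Activin+PD minus 2i. In the mEpiSC minus 2i ranking, 9870 of 14200 genes had a difference at or above that of Trim71. Among 4 messenger RNAs reported to be repressed by TRIM71, 1 was higher and 1 lower by 2-fold or more in mEpiSCs than in 2i, beside 4.54% and 4.96% of all genes. Egr1, an early response transcription factor induced through ERK, was at 5.65 in 2i and 8.17 in mEpiSCs, and Rbl2, a retinoblastoma family gene, was at 7.02 and 5.66. Cdkn1a, which encodes the cell cycle inhibitor p21, was at 10.28 in mEpiSCs and 11.16 in 2i. The 2 mESC cultures had the MEK inhibitor and the mEpiSCs did not, so ERK inhibition and cell state cannot be told apart in these comparisons.

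HMGA2 is an architectural chromatin protein with AT-hooks that bind the minor groove of AT-rich DNA, and its messenger RNA is a strongly let-7-repressed transcript. The log2 level of Hmga2 was 7.07 in Activin+PD, 7.59 in 2i and 8.95 in mEpiSCs. It was above background on all arrays, lowest in Activin+PD and highest in mEpiSCs. The difference was 1.36 for mEpiSC minus 2i, or 2.57-fold, and 1.89 for mEpiSC minus Activin+PD, or 3.70-fold, where it was gene 137 of 14375 from the top. Hmga2 also had the largest difference of any measured member between the mESC cultures. It was lower in Activin+PD than in 2i by 0.53, or 1.44-fold, a difference above the spread between probe sets, with 13540 of 14003 genes at or above it. The probe set of a pseudogene, Hmga2-ps1, is annotated separately on the array and was not counted as Hmga2.

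IGF2BP proteins bind messenger RNAs such as those of Igf2, Actb and Myc and affect their location, stability and translation. The log2 level of Igf2bp3 was 10.30 in Activin+PD, 10.21 in 2i and 10.68 in mEpiSCs. It was far above background on every array, with the mEpiSC level the highest. The difference was 0.47 for mEpiSC minus 2i, or 1.39-fold, and 0.39 for mEpiSC minus Activin+PD, or 1.31-fold. Both were inside 2-fold and slightly above the spread between probe sets. With the lowess trend removed, the difference against Activin+PD was 0.31, inside the spread of 0.33. Among 5 measured messenger RNAs known as IGF2BP ligands, Myc was the 1 at least 2-fold higher in mEpiSCs than in 2i, beside 4.54% of all genes. Igf2, the growth factor gene that gave the family its name, was at 6.89, 6.84 and 6.76 in Activin+PD, 2i and mEpiSCs, and Actb at 10.95, 11.05 and 11.15.

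**Figure D2:**
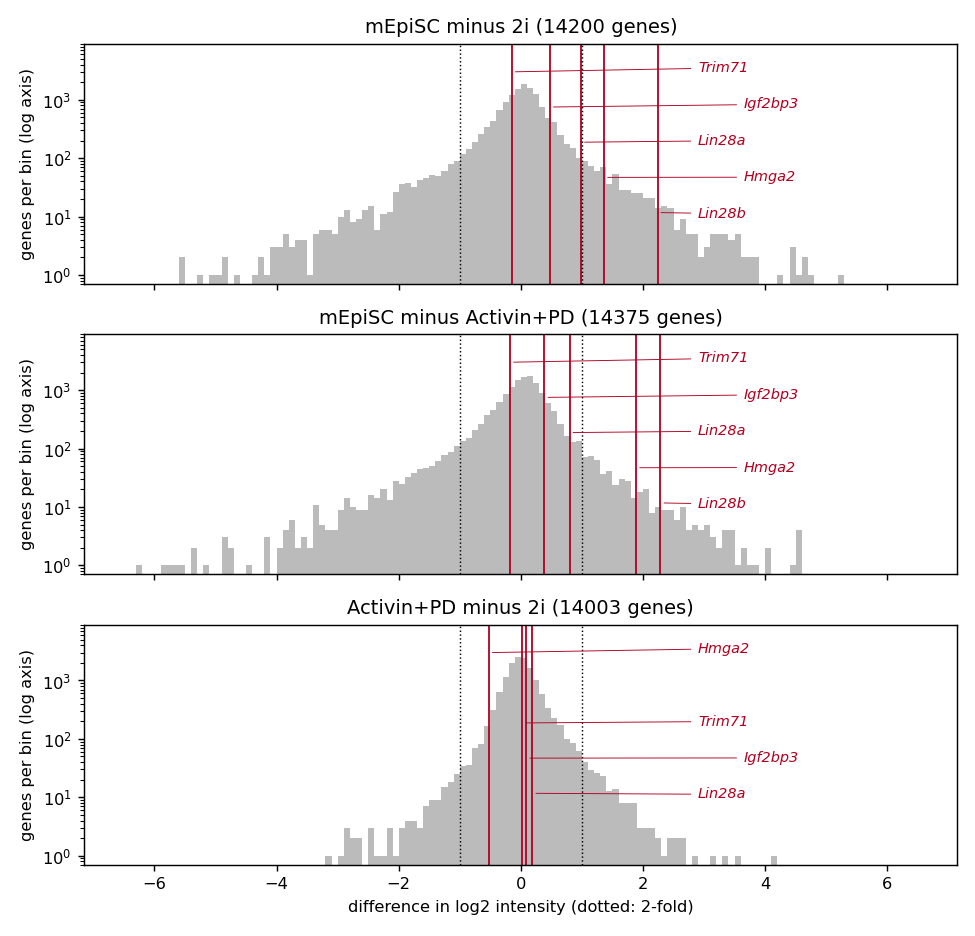
Difference in log2 intensity (horizontal axis) of all genes compared, as the number of genes per bin of 0.1 (vertical log axis), with the measured members as red lines and the 2-fold limits dotted. Lin28b and Hmga2 lay beyond the upper limit in both comparisons with mEpiSCs, Lin28a lay just below it in mEpiSC minus 2i, and the 4 members compared between the mESC cultures lay inside; Lin28b is drawn at its measured difference, which uses a value not above background.

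Promoters of 4 measured members that were higher in mEpiSCs are printed from RefSeq (GRCm38.p6), as the 250 bases before the annotated start, 5′ to 3′ on the gene's strand. They show the sequence in which shared motifs were looked for. Capitals mark matches on either strand to any of 6 motifs, none of which overlapped another there. The E-box was searched as CACGTG. The TATA box was searched as TATAAA, the GC box of SP factors as GGGCGG and the CCAAT box by those letters. The octamer that POU5F1 and its relatives bind was searched as ATGCAAAT, and the site of TCF factors, the partners of beta-catenin, as CTTTGAT. The windows lie on the minus strand at chr10:45470202-45470451 for Lin28b, chr4:134018817-134019066 for Lin28a, chr10:120476470-120476719 for Hmga2 and chr6:49214955-49215204 for Igf2bp3.
Lin28b: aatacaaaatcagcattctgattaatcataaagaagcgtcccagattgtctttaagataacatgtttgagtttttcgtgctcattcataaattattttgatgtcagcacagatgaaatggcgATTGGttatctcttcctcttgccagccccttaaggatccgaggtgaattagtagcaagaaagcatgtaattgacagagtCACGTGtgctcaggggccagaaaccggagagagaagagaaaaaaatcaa
Lin28a: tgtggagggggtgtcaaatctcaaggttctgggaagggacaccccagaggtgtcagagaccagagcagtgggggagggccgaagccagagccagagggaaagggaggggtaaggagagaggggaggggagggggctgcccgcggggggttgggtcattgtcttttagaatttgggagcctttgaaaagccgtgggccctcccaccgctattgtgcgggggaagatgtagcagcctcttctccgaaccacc
Hmga2: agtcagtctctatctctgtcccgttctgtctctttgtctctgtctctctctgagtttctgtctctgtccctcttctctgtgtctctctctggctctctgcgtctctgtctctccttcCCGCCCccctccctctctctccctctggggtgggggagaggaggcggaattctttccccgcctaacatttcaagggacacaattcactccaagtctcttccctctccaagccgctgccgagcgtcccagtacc
Igf2bp3: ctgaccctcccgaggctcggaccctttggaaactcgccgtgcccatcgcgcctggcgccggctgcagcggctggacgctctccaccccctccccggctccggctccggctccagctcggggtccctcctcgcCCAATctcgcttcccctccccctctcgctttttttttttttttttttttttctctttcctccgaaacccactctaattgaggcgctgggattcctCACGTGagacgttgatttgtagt

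Lin28b and Igf2bp3 each held 1 E-box, the sequence bound by MYC and related factors, at positions -49 to -44 and -23 to -18 from the start, while 6.02% of 32851 promoter windows of the same length held one. Both also held a CCAAT box, which 33.8% of windows did. Hmga2 held 1 GC box, as did 32.7% of windows, and no letters of the 6 motifs were found in the Lin28a window. Trim71, the measured member that was not higher in mEpiSCs, held 1 GC box. Like Hmga2 and Lin28a, which were higher, it held no E-box. The TATA box (12.4% of windows), the octamer (1.60%) and the TCF site (3.21%) were in none of these 5 windows. Windows of Hmga1 and Igf2bp2, whose levels were not analysed, held GC boxes and no E-box, and those of Hmga1 also held the octamer. The 5 windows of measured members differed in base composition. Lin28b had 39.2% G and C with 6 CpG dinucleotides, Lin28a 61.2% with 7, Hmga2 56.4% with 8, Igf2bp3 60.4% with 21 and Trim71 62.8% with 17, beside medians of 52.4% and 6 over all windows. A match to letters is a description of the sequence, and binding was not measured.

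The let-7 precursors themselves were near or below background. Of 12 let-7 family genes with a precursor probe set, 2 were above background on each array, Mirlet7a-1 and Mirlet7i. Mirlet7i was at 5.77 in Activin+PD, 5.75 in 2i and 6.04 in mEpiSCs, and Mirlet7a-1 at 5.58, 5.80 and 5.61. The other 10 lay between 4.30 and 5.46 and were not compared. These probe sets address hairpin precursors and their host transcripts, so the mature let-7 shown above was not measured. LIN28 acts after transcription, on the step from precursor to mature strand, which these arrays do not see.

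**Figure D3:**
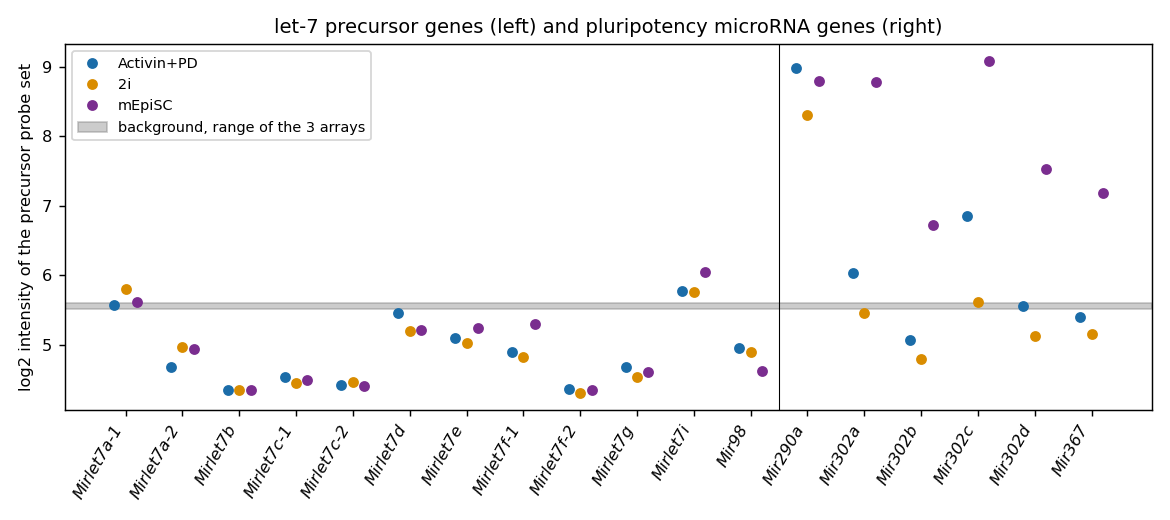
Log2 intensity (vertical axis) of the precursor probe set of 12 let-7 family genes, left of the line, and 6 pluripotency microRNA genes, right of it, on the 3 arrays (1 point per array); the grey band spans the background of the arrays. Only Mirlet7a-1 and Mirlet7i lie above background among the let-7 genes, whereas all 6 genes on the right do so in mEpiSCs.

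Of 16 listed microRNA processing and silencing genes, 14 had a probe set and 13 were above background on every array. Ago4 was not above background on any. The 13 were within 2-fold in each comparison, as were most genes, since 4.54% of all genes were higher and 4.96% lower by that fold in mEpiSC minus 2i and 1.38% and 0.821% in Activin+PD minus 2i. They had a median of -0.17 for mEpiSC minus 2i and -0.069 for Activin+PD minus 2i. Xpo5, which exports the precursors from the nucleus, was at 9.57, 9.76 and 10.12 in Activin+PD, 2i and mEpiSCs. Dicer1, the cytoplasmic enzyme and itself a let-7 target, was at 8.88, 8.95 and 8.72. Ago2, an effector of silencing, was at 10.51, 10.42 and 10.12. The 3 genes through which LIN28 marks and removes the let-7 precursor were within 2-fold too. Tut4, which encodes a uridylyl transferase, was at 9.40, 9.19 and 9.02. Its relative Tut7 was at 8.03, 8.37 and 8.10, and Dis3l2, which encodes the exonuclease that degrades the uridylated precursor, at 7.40, 7.63 and 7.21. All 3 were below 2i in mEpiSCs, by 0.17 to 0.42.

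Other genes listed as reported or predicted let-7 targets leaned higher in mEpiSCs, as did the measured members other than Trim71. The list was chosen with earlier results of these data known. Of 27 compared, 7 were at least 2-fold higher in mEpiSCs than in 2i and 0 lower, beside 4.54% and 4.96% of all genes, and their median was 0.49 beside 0.031. In all, 21 were above and 6 below 0. With values below background raised to it, 6 were at least 2-fold higher. Against Activin+PD, 6 were at least 2-fold higher and 1 lower, beside 3.59% and 5.38% of all genes, with a median of 0.38 beside 0.042. Between the mESC cultures, 1 of 26 was at least 2-fold higher and 1 lower in Activin+PD, near the 1.38% and 0.821% of all genes, with a median of 0.055 beside -0.0056 over all genes. The 2 comparisons with 2i share its array, so their values are not independent.

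Myc, which encodes a growth-promoting transcription factor, stood on the log2 scale at 7.95 in Activin+PD, 7.73 in 2i and 9.86 in mEpiSCs, a difference of 2.13 against 2i. Cdk6, which encodes a G1 kinase, stood at 7.13 in Activin+PD and 8.07 in 2i and was higher in mEpiSCs than in these by 2.87 and 1.93, the same order of cultures as for Hmga2. Thbs1, which encodes the matrix protein thrombospondin, was not above background in 2i and was at 8.87 in mEpiSCs, higher by at least 3.28. Ccnd2, a D-type cyclin gene, broke that order. It was at 9.78 in Activin+PD, 6.41 in 2i and 8.72 in mEpiSCs, so both Activin A cultures were above 2i and Activin+PD was the highest. Limd2 and Prtg were higher in mEpiSCs than in 2i by 1.13 and 1.12, and Gatm by at least 0.85. Ccnd1 was at 8.80, 9.86 and 9.69, lower in Activin+PD than in 2i by 1.06. The other let-7 targets stayed within 2-fold of 2i in both other cultures, among them Mycn at 8.38, 8.21 and 8.23.

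**Figure D4:**
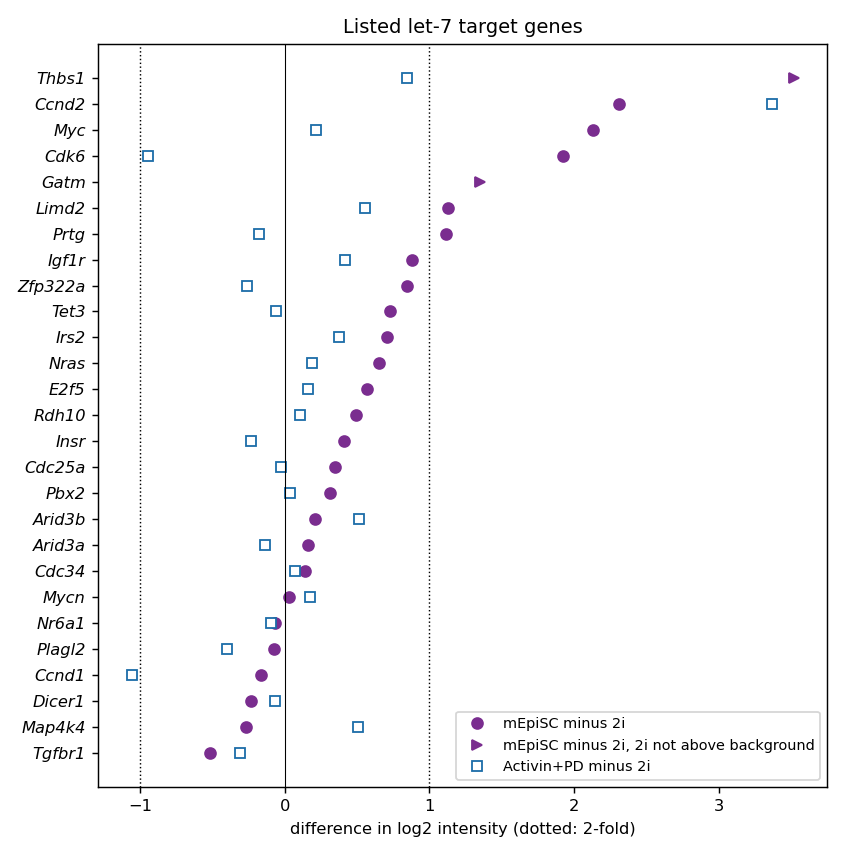
Difference in log2 intensity (horizontal axis) of the 27 let-7 target genes compared, for mEpiSC minus 2i (filled; triangles where 2i was not above background) and Activin+PD minus 2i (open squares, where compared), with the 2-fold limits dotted. For mEpiSC minus 2i, 21 of the 27 genes lie above 0 and 7 lie beyond the upper limit; Ccnd2 is the 1 gene beyond it in Activin+PD minus 2i.

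Markers of other cell types also differed between the cultures. Of 4 mesendoderm markers, 3 were at least 2-fold higher in mEpiSCs than in 2i, among them Mixl1 at 9.40 against 6.02 and Eomes at 9.43 against 7.05. The summed intensity of the 4 was 1779 in mEpiSCs, 297 in 2i and 268 in Activin+PD. For 6 endoderm markers it was 488, 332 and 338, with Gata6 at 7.09 in mEpiSCs and not above background in the mESCs, and for 8 fibroblast markers 490, 414 and 417, with Postn, Lum and Dcn not above background on any array. The 5 neural markers summed to 936, 624 and 1040, and the 4 trophoblast markers to 279, 575 and 377. Within both sums, single markers differed in the order of the cultures. Nes had intensities of 594, 157 and 152 in mEpiSCs, 2i and Activin+PD, while Tubb3 had 113, 257 and 641. Cdx2 had 60, 399 and 57 and made up most of the trophoblast sum in 2i, while Gata3 had 88, 71 and 209. A second Gata3 probe set, above background on every array, differed by a log2 value of 0.18 for Activin+PD minus 2i, beside 1.56 for the one used. The neural and trophoblast sums therefore do not give the level of a cell type. The part of such cells in the levels of Lin28b, Hmga2 and the let-7 targets was not tested, and a change in the share of expressing cells and a change per cell cannot be told apart in RNA of a whole culture.

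Genes with a pattern like those of Lin28b and Hmga2 over the 3 arrays were looked for across the table. Likeness was the Euclidean distance between log2 values centred per gene over the 3 arrays, among 14526 genes above background on at least 1 array. For Lin28b, 37 genes lay within 0.25, among them Flt1, Shisa6 and Cdh10, which had the smallest distances. Lin28b, Shisa6 and Cdh10 were not above background in either mESC culture, so these distances use values without a set level and give no order among the genes. For Hmga2, 26 genes lay within 0.25, among them Vrtn at 0.0022 and Krt19 at 0.029, both above background on every array. Mir18b was also among the 3 nearest but was not above background in either mESC culture. A likeness over 3 arrays rests on 1 culture of each kind.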

How the data were processed

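The authors deposited 1 table of intensities on a linear scale for 33793 probe sets and 3 arrays. RMA, which corrects background, quantile-normalises arrays and summarises probe sets, is named in the submitters' processing notes, and GeneSpring GX 11.5 in the series' design text. From the values, the lowest intensity was 18.9 to 19.1 and the median 50.9 to 51.9. The similar lowest values leave unknown whether a constant was added, which would shrink fold differences of dim genes. The log2 of each deposited intensity was taken here, with Python 3.11.15, numpy 2.4.6 and pandas 2.3.3.

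Of the probe sets, 23521 had 1 gene symbol, 1814 several and 8458 were not listed, and 23328 symbols were updated through Entrez identifiers in RefSeq (GRCm38.p6). A gene with several probe sets was represented by the brightest. A gene was compared where the higher array was above its background. "At least" differences set the brighter array against the background of the dimmer one. The comparison step was checked on simulated data. With 1 array per group, the number of arrays limits the precision, and no p-value was computed.

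The text names all members, partners of the members and the 3 genes nearest to each member beyond 2-fold. Outside the marker lists, it names listed genes at least 2-fold apart in mEpiSC minus 2i or Activin+PD minus 2i (at most 8 per list and comparison). Marker genes are named in part, and those left out include genes at least 2-fold apart, such as Dnmt3b and Pou3f1. The members and lists were chosen with earlier results of these data known. Alternatives covered scaling, background, filter, fold limit, probe set rule and a subtracted constant.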

Additional observations from a re-analysis of the deposited data

Results flagged for a closer look

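Probe sets listed for several gene symbols were outside the comparisons, and 2 of them bear on these genes because their signal was above the background of every array. The probe set listed for both Igf2bp1 and Mir3063 stood at a log2 level of 10.96 in Activin+PD, 10.92 in 2i and 10.67 in mEpiSCs, a difference of -0.26 for mEpiSC minus 2i, and it is assigned to neither gene. The probe set listed for 7 symbols of the miR-290 to miR-295 cluster, among them Mir291a, Mir294 and Mir295, stood at 8.29 in Activin+PD, 7.96 in 2i and 8.01 in mEpiSCs. Both lay within 2-fold on all arrays.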

How the results depend on the processing

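No paired analysis was possible because each group had 1 array and the labels carry no replicate numbers. The direction of the differences of the 5 measured members, other than that of Lin28b between the mESC cultures, where it was not compared, was kept under the 8 scaling, background, filter and probe set alternatives, each compared with the values as reported. The measured differences of Lin28b, which use mESC values not above background, moved by more than the spread between probe sets when 16 was subtracted from each value, from 2.24 to 2.85 against 2i and from 2.28 to 2.93 against Activin+PD. Lin28a crossed the 2-fold limit against 2i with that constant subtracted, at 1.004, and with median centring, at 1.005, and each made 3 members at least 2-fold higher. The 1.5-fold limit also gave 3 members in each comparison with mEpiSCs. Hmga2 ranged from 1.36 to 1.44 in mEpiSCs against 2i and from 1.88 to 2.02 against Activin+PD. Lin28b is limited by its signal, which was not above background in either mESC culture. Under repeated quantile normalisation, median centring, lowess removal and the subtracted constant, the median of the listed let-7 targets in mEpiSCs against 2i lay between 0.50 and 0.54, with 7 or 8 genes at least 2-fold higher.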

Other observations

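Precursors of the miR-302 cluster, microRNAs of early embryonic cells, were higher in mEpiSCs. Of 12 listed pluripotency microRNA genes, 6 had a single-symbol probe set. Those without one belong to the miR-290 to miR-295 cluster, whose shared probe set differed by 0.05 for mEpiSC minus 2i. Of the 6 compared, 5 were higher by 2-fold or more in mEpiSCs than in 2i, beside 4.54% of all genes. The median difference of the 6 was 2.21, or 1.76 with values below background raised to it. Those 5 lie in the same cluster on chromosome 3, so their values are not independent of each other. Mir302a, Mir302b, Mir302d and Mir367 were not above background in 2i and entered this comparison through their mEpiSC values alone. The log2 level of Mir302c was 6.85 in Activin+PD, 5.62 in 2i and 9.08 in mEpiSCs. It was higher than in 2i by 3.47, and Mir302a was higher by at least 3.19. Mir302d, Mir367 and Mir302b were higher by at least 1.93, 1.59 and 1.12. Mir290a, of the other embryonic cluster, was at 8.97, 8.30 and 8.79 and within 2-fold. A few mature strands from RefSeq (GRCm38.p6) are printed with bases 2 to 8 in capitals, to show a seed found in both clusters and the different seed of miR-367-3p, AUUGCAC.
miR-302b-3p: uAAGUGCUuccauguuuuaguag
miR-302d-3p: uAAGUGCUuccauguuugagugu
miR-294-3p: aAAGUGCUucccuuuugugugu
miR-367-3p: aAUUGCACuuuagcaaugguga
The seed AAGUGCU was shared by miR-302b-3p, miR-302d-3p, miR-291a-3p, miR-294-3p and miR-295-3p, 5 strands from both clusters, and differed from the let-7 seed GAGGUAG. Mature strands were not measured.

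Of 37 other RNA-binding protein genes, 4 were higher and 1 was lower by 2-fold or more in mEpiSCs than in 2i, beside 4.54% and 4.96% of all genes, with a median of 0.078 beside 0.031. All 3 listed Zfp36 family genes, whose proteins bind AU-rich elements and promote messenger RNA decay, were among the 4. Zfp36l2 was at 8.51 in Activin+PD, 7.75 in 2i and 10.20 in mEpiSCs, Zfp36 at 6.46, 5.99 and 8.12, and Zfp36l1 at 7.72, 7.96 and 9.32. A second, dimmer probe set of Zfp36l1 was higher in mEpiSCs than in 2i by 0.68, inside 2-fold. Esrp1, an epithelial splicing regulator, was higher by at least 3.48, and Dazl, a germ cell RNA-binding protein gene, was lower by at least 2.16. All 6 other HMG genes compared and all 6 other TRIM family genes compared were within 2-fold in each comparison, as were most genes. In the IGF axis, 2 of 11 compared were higher by 2-fold or more in mEpiSCs than in 2i, beside 4.54% of all genes, and 0 were lower. Igfbp3, which encodes an IGF-binding protein, was at 8.38, 7.36 and 10.81, and Irs1, an adaptor of the insulin and IGF receptors, was higher by at least 1.20, with a second probe set not above background on any array.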
